A study of Mus musculus with 24 samples.

Results

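The genes described here are 45 mouse genes of the Wnt pathway, taken by gene symbol from 21887 protein-coding genes on the main chromosomes: 19 Wnt ligands, 12 receptors (Fzd1 to Fzd10, Lrp5 and Lrp6), 7 secreted inhibitors (Sfrp1, Sfrp2, Sfrp4, Sfrp5, Dkk1, Dkk2 and Dkk4), 3 genes of the cytoplasmic relay (Axin1, Axin2 and Ctnnb1) and 4 nuclear factors (Lef1, Tcf7, Tcf7l1 and Tcf7l2). The choice used symbols and no measured value, but earlier results of these data were known when it was made. Peaks were assigned to a gene if they shared 1 bp or more with its body or with the 5 kb on either side.

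Wnt proteins are secreted, lipid-modified signals that bind a Frizzled receptor together with LRP5 or LRP6. In the branch that runs through beta-catenin, binding stops a complex built on axin from destroying beta-catenin (Ctnnb1), which then acts in the nucleus with LEF1 and the TCF proteins. SFRP proteins bind Wnts outside the cell, and DKK1 binds the LRP co-receptors. In the eye the pathway is known for its roles in the pigment epithelium, the ciliary margin and, through Fzd4 and Lrp5, the retinal vessels.

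The data come from CUT&RUN, in which an antibody brings a nuclease to a chromatin protein and the DNA released around it is sequenced. The retinas were from wildtype mice aged 2 days (P2) or 17 days (P17), each reaction took 600000 nuclei, and the labels name no strain. At each age the libraries were 4 for SOX8 (from 2 antibodies), 2 for SOX9, 2 for H3K4me3 (a mark of active promoters), 2 for H3K27ac (a mark of active promoters and enhancers) and 2 for a nonspecific IgG, which was not analysed here. SOX8 and SOX9 are related transcription factors of glia and progenitors. The deposited values are 8 peak lists, 1 per target and age, with positions and no height. A list names no replicate, so there is no error between libraries, no p-value is given, and the depth is unknown.

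The lists held 2653 (P2) and 2400 (P17) SOX8 peaks, 5476 and 2855 SOX9 peaks, 9134 and 9629 H3K4me3 peaks, and 287845 and 29909 H3K27ac peaks. H3K4me3 lay at the retinal genes Pax6, Rax, Crx, Otx2 and Nrl at both ages and at Rlbp1 at P2 and not P17. It lay at 1 of 6 markers of pigment epithelium, endothelium and microglia (Aif1), and at neither the liver gene Alb nor the muscle gene Myod1. Because the nuclei came from whole retina, fewer cells with a bound site and less binding per cell cannot be told apart.

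SOX8 was called at receptor genes mostly at P2, SOX9 at receptor genes at both ages, and several Wnt ligands carried SOX peaks at P17 without active marks. SOX9 peaks lay at 8 of 12 receptor genes and 3 of 19 ligand genes at P2, against 27.7% of all protein-coding genes, and at 5 and 4 of them at P17, against 15.7%. The 5 P17 SOX9 peaks at receptors were each narrower than the median of that list, 5336 bp. The one counted for Lrp5 held the start of Ppp6r3. SOX8 peaks lay at 5 receptor genes and 2 ligand genes at P2, against 15.1%, and at 1 and 6 of them at P17, against 13.0%. Counting either factor, 5 receptors and 3 ligands had a peak at both ages (41.7% and 15.8%, background 14.0%). Among them, the peaks at Wnt5b held the start of Fbxl14 and those at Fzd4 also held that of Tmem135. Lrp5 and Wnt7b were reached in different places at the 2 ages. Peaks at P2 and not P17 were found at 3 receptors and 1 ligand (25% and 5.26%, background 14.4%), and the reverse at 0 receptors and 5 ligands (26.3% of ligands, background 5.48%). The P2 SOX9 list held 5476 peaks and the P17 list 2855. Whether ligands and receptors differ in this was not tested, because genes are not replicates. At P2, H3K4me3 also lay at 10 of 12 receptor genes and 3 of 19 ligand genes (83.3% and 15.8%, background 49.3%). Among all protein-coding genes, P2 SOX9 peaks lay at 53.3% of those with P2 H3K4me3 and 2.91% of those without. The part of H3K4me3 in the SOX counts of ligands and receptors was not tested.

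Over all 45 genes, 8 had a P2 SOX8 peak (17.8%, background 15.1%), 9 a P17 SOX8 peak (20%, background 13.0%), 15 a P2 SOX9 peak (33.3%, background 27.7%) and 11 a P17 SOX9 peak (24.4%, background 15.7%). At least 1 of the 4 SOX lists reached 22 genes, or 48.9% against 33.9% of all genes. Only Wnt5b and Fzd8 were reached by all 4 lists, 4.44% against 6.45%. In each single SOX list the set exceeded the background by fewer than 5 genes, and the wider spread was within it, between ligands and receptors. The median length of the 45 genes was 22906 bp against 17169 bp for all genes, and among genes within their range of lengths the P2 SOX9 background was 30.3%.

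**Figure D1:**
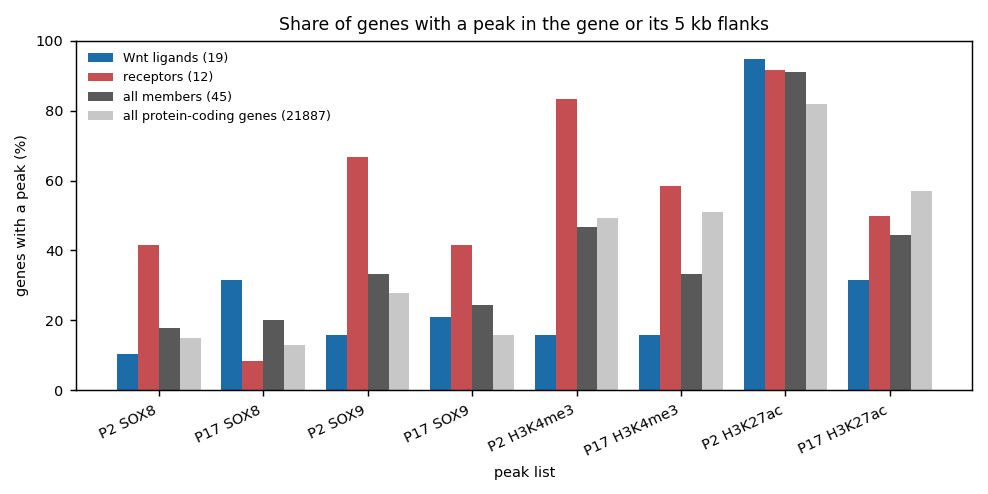
Share of genes with a peak (vertical axis, percent) in each of the 8 lists, for the 19 ligands, the 12 receptors, all 45 genes and all 21887 protein-coding genes. The receptor bar stands at 66.7% for P2 SOX9 and the ligand bar at 15.8%, while for P17 SOX8 they stand at 8.33% and 31.6%.

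**Figure D2:**
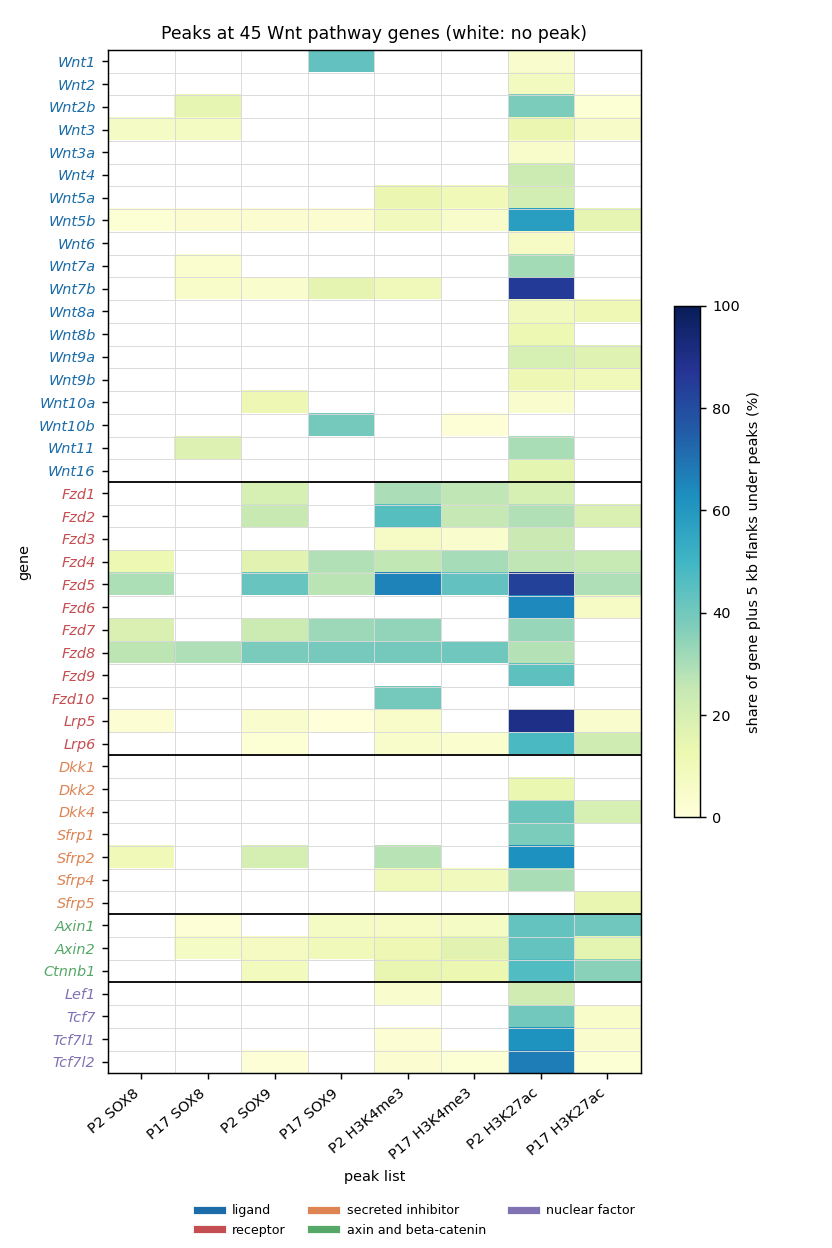
Each row is a gene and each column a peak list; colour gives the percentage of the gene and its 5 kb flanks that lies under peaks, and white means no peak. Fzd8 is coloured in all 4 SOX columns, whereas Wnt1 (43.04%) and Wnt10b (39.83%) are strongly coloured in the P17 SOX9 column alone among the SOX lists.

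Among the receptors, Fzd8 was the gene with the most constant occupancy. The gene carried a SOX8 peak of 3577 bp at P2 and 3889 bp at P17, and a SOX9 peak of 5129 bp at P2 and 5231 bp at P17. H3K4me3 covered the same place at both ages (5271 bp and 5410 bp), whereas H3K27ac was called there at P2 and not at P17. All 4 SOX peaks covered the lower-coordinate end of this short gene of 3346 bp.

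Fzd5, a Frizzled gene known from early eye development, had the widest SOX9 peak among the receptors at P2. Its P2 SOX9 peak spanned 7222 bp (chr1:64732640-64739861), its P2 SOX8 peak 5064 bp and its P17 SOX9 peak 4680 bp, and no P17 SOX8 peak was called, the nearest lying 440068 bp away. H3K4me3 covered 11335 bp at P2 and 7406 bp at P17. The share of the Fzd5 window under H3K27ac was 83.32% at P2 and 29.05% at P17, the highest P17 value among the receptors. SOX9 and both marks were thus present at both ages and narrower at P17, and SOX8 was present at P2.

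Fzd4 and Fzd7 showed the same order of lists, with SOX8 at P2 and SOX9 at both ages. At Fzd4, the receptor for norrin on retinal vessels, the P2 SOX8 peak was 1962 bp, the P2 SOX9 peak 2574 bp and the P17 SOX9 peak 4526 bp, and all 3 also held the start of Tmem135. Because both genes start under them, these peaks cannot be given to Fzd4 alone. At Fzd7 the peaks were 2742 bp, 3457 bp and 4759 bp in the same order. Fzd7 differed in its marks: H3K4me3 (5055 bp) and H3K27ac were called at P2 and neither at P17, so its P17 SOX9 peak (chr1:59480836-59485594) lay outside both marks of its age.

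A P2 SOX9 peak was the sole SOX peak at Fzd1 (2865 bp), Fzd2 (3308 bp) and Lrp6 (2145 bp). Each overlapped an end of its gene and H3K4me3 of both ages. Lrp6 encodes the co-receptor that pairs with Frizzled, and H3K27ac covered 29096 bp of its window at P17, more than at any other receptor. The next SOX9 peaks at P17 were 647311 bp from Fzd1, 155152 bp from Fzd2 and 352145 bp from Lrp6.

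Lrp5, the other co-receptor, had its SOX peaks away from its own ends. At P2 a SOX8 peak of 2194 bp lay within a SOX9 peak of 4791 bp (chr19:3639806-3644596) inside the gene, 41989 bp from the nearer end, in H3K27ac without H3K4me3. This place had no SOX peak at P17. The P17 SOX9 peak counted for Lrp5 lay 4940 bp from the gene, just inside the 5 kb limit, and held the start of Ppp6r3. A P17 SOX8 peak 6894 bp from Lrp5 fell just outside the limit. The share of the Lrp5 window under H3K27ac was 89.93% at P2, the highest of the 45 genes, and 3.60% at P17.

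Fzd3, Fzd6, Fzd9 and Fzd10 had no SOX peak in any list. Fzd3, a receptor of the planar polarity branch, kept H3K4me3 at both ages (4795 bp and 3262 bp). Fzd10 had H3K4me3 at P2 (5139 bp) and no peak in the other 7 lists, and the nearest SOX peak of any list lay 413233 bp away. Fzd6 and Fzd9 had no H3K4me3 peak, with 64.38% and 44.07% of their windows under P2 H3K27ac.

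Among the ligands, 5 genes had a start covered by a P17 SOX peak that overlapped no H3K4me3 or H3K27ac peak of that age, and none of the 5 genes had a P2 SOX peak. The share of all genes with a start under such a peak was not computed. No start was tabulated for the ligands Wnt5a, Wnt7b, Wnt8a and Wnt10a. For SOX9 the genes of this kind were Wnt1 and Wnt10b, neighbours 11651 bp apart. The Wnt1 peak spanned 6014 bp and the whole gene (chr15:98788438-98794451), and the Wnt10b peak spanned 6969 bp over its start (chr15:98774947-98781915). Neither overlapped a peak of any other list of either age, so each gene of the pair had a SOX9 peak of its own with no other call over it. Both peaks were wider than the median of the P17 SOX9 list, 5336 bp.

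For SOX8 the ligands of this kind were Wnt2b (3931 bp, chr3:104960826-104964756), Wnt11 (5425 bp, chr7:98834829-98840253) and Wnt7a (1907 bp, chr6:91410781-91412687). Wnt2b is known from the ciliary margin, and WNT11 acts largely without beta-catenin. The Wnt11 peak held both of its tabulated starts and that of Gm33770, and the Wnt7a peak also held the start of Gm30437 and overlapped H3K27ac at P2. SOX9 was not called at any of these 3 genes at either age, with the nearest P17 SOX9 peaks 147161 bp from Wnt2b, 284560 bp from Wnt11 and 60325 bp from Wnt7a.

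Wnt7b, a ligand expressed in neural tissue, was reached in different places at the 2 ages. Its P2 SOX9 peak (2064 bp, chr15:85574334-85576397) and its overlapping P17 peaks of SOX8 (3016 bp) and SOX9 (8465 bp, chr15:85540937-85549401) lay inside the gene at opposite ends of it. H3K4me3 was called at P2 (5517 bp) and not at P17. H3K27ac covered 85.54% of its window at P2, the highest among the ligands, and 0% at P17. The P17 SOX peaks of Wnt7b therefore lay on sequence under P2 H3K27ac and under no P17 mark.

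In all, 7 of the 45 genes had a P17 SOX peak overlapping neither mark of its age, against 3.26% of all protein-coding genes: the ligands Wnt1, Wnt2b, Wnt7a, Wnt7b, Wnt10b and Wnt11, and Fzd7. SOX8 gave 4 of these genes (8.89%, background 1.72%) and SOX9 gave 4 (8.89%, background 2.07%), with Wnt7b in both. Such peaks made up 44.4% of the SOX8 peaks and 36.4% of the SOX9 peaks at the 45 genes at that age, against 13.9% of each whole list. At P2 there were 0 such genes for SOX8 (background 0.00457%) and 1 for SOX9 (2.22%, background 0.0640%), and 99.7% and 99.4% of the peaks in those lists overlapped P2 H3K27ac. The P2 H3K27ac list is far longer than the P17 list, so the absence of the mark is not comparable between ages. A count of this kind has no replicate error and was not tested.

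Wnt3 was reached by SOX8 without SOX9 at both ages. The peaks were 3524 bp at P2 and 3869 bp at P17 (chr11:103807906-103811774), overlapped each other and H3K27ac of both ages, and lay inside the gene 6247 bp or more from its nearer end. Wnt10a had a P2 SOX9 peak of 2569 bp, 1924 bp outside the gene and outside both P2 marks. Of the P2 SOX8 peaks at the 45 genes, 7 of 8 overlapped P2 SOX9 (94.5% in the whole list), the exception being that at Wnt3. At P17, 4 of 9 SOX8 peaks overlapped SOX9, against 59.0% of the list.

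Wnt5b was counted in all 4 SOX lists, but through another gene. Its SOX peaks of 2299 bp and 2970 bp (SOX8) and 3455 bp and 3075 bp (SOX9) lay 45538 bp or more from either end of Wnt5b and held the start of Fbxl14, which lies inside it. H3K4me3 at a start of Wnt5b itself was called at P2 (2971 bp) and not at P17. When peaks that held the start of another protein-coding gene and no tabulated start of the member were left out, an alternative chosen after seeing the data, the counts became 7 and 8 for SOX8 and 14 and 9 for SOX9 at P2 and P17. Backgrounds were not computed for this alternative.

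The remaining 10 ligands had no SOX peak. Wnt5a, the main ligand of the branch without beta-catenin, was the sole one of them with H3K4me3, of 4318 bp at P2 and 3389 bp at P17. Wnt2, Wnt3a, Wnt4, Wnt6, Wnt8b and Wnt16 had P2 H3K27ac peaks and no peak in the other 7 lists. Wnt8a, Wnt9a and Wnt9b had H3K27ac at both ages. Wnt2 lay farthest from SOX binding, 3915633 bp from the nearest peak of any SOX list, and Wnt6 nearest, 20778 bp from a P2 SOX9 peak.

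**Figure D3:**
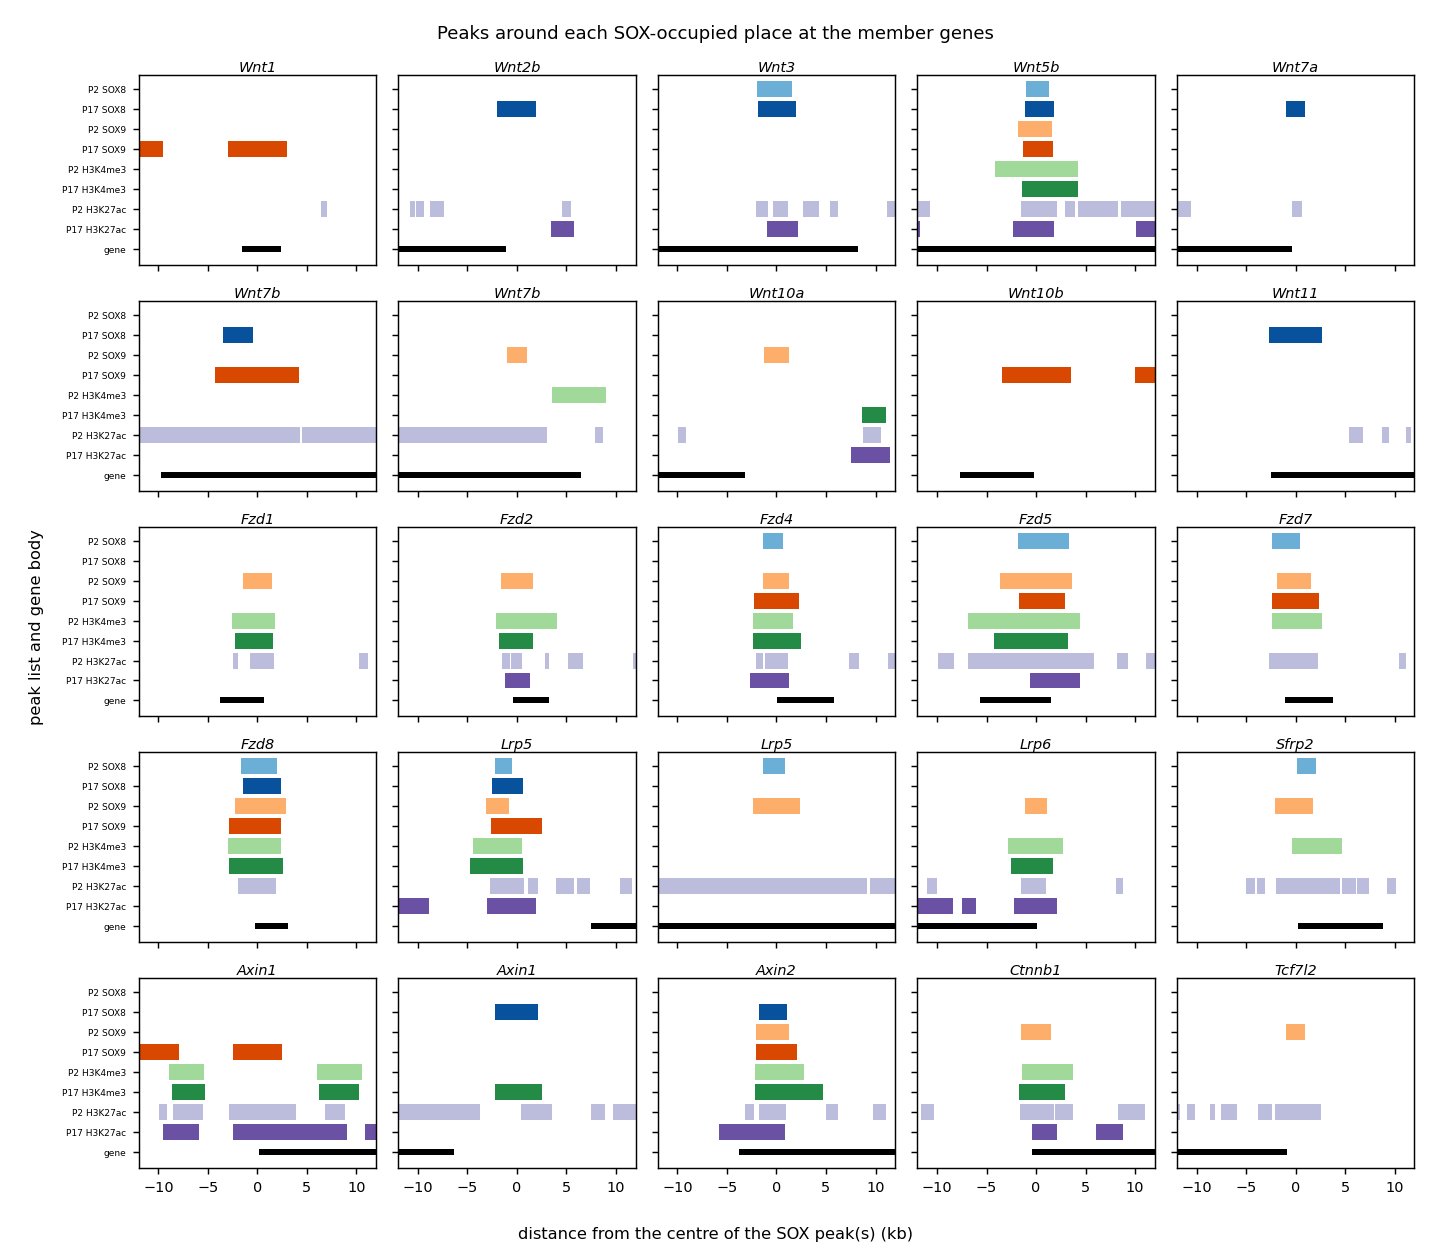
Peaks of all 8 lists (coloured bars) and the gene (black bar) within 12 kb of each of the 25 SOX-occupied places at 22 genes; the horizontal axis is the distance in kb from the centre of the SOX peaks counted for that gene. In the panels for Wnt1, Wnt10b and Wnt11 no mark overlaps the central SOX peak, while those for Fzd4, Fzd5 and Fzd8 hold SOX and H3K4me3 bars at the same place.

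Of the secreted inhibitors, Sfrp2 alone had SOX peaks. At its start a SOX8 peak of 1915 bp and a SOX9 peak of 3831 bp (chr3:83763437-83767267) were called at P2, together with H3K4me3 (5078 bp) and H3K27ac over 62.35% of the window. At P17 none of these 4 peaks had a counterpart, and the nearest SOX9 peak lay 2448216 bp away. The gene thus had every kind of peak at P2 and none at P17.

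Dkk1 had no peak in any of the 8 lists, Sfrp1 and Dkk2 had P2 H3K27ac alone, and Sfrp5 had P17 H3K27ac alone (2001 bp). Dkk4 had H3K27ac at both ages. The H3K4me3 counted for Sfrp4 lay 3005 bp or more outside the gene and held the start of Epdr1. H3K4me3 at an own gene end was therefore called, among the inhibitors, at Sfrp2.

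All 3 genes of the cytoplasmic relay had SOX peaks. Axin2, a feedback inhibitor and widely used readout of beta-catenin signalling, had a SOX9 peak over its start at both ages (3321 bp at P2, 4231 bp at P17) and a SOX8 peak at P17 (2818 bp, chr11:108919804-108922621), with no SOX8 peak at P2. H3K4me3 (4888 bp and 6892 bp) and H3K27ac overlapped these peaks at both ages. Ctnnb1 had a P2 SOX9 peak over its start (3059 bp) and none at P17, though H3K4me3 stayed at 5233 bp and 4650 bp. At Ctnnb1 the promoter mark was thus called at both ages and SOX9 at P2.

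Axin1, the scaffold of the destruction complex, was reached at P17 and not at P2. Its P17 SOX9 peak (4918 bp, chr17:26128589-26133506) covered the lower end of the gene inside H3K27ac and outside H3K4me3. The P17 SOX8 peak counted for Axin1 (4349 bp) lay 4216 bp beyond the gene, over Arhgdig and Rgs11. H3K27ac covered 42.89% of the window at P2 and 40.53% at P17, the highest P17 share of the 45 genes.

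Of the nuclear factors, Tcf7l2 had the sole SOX peak, of SOX9 at P2 (1937 bp, chr19:55933563-55935499), at the end away from its start, in H3K27ac without H3K4me3. Tcf7l1, a repressor in many tissues, and Lef1 had H3K4me3 at P2 (3435 bp and 4652 bp) and not at P17. The nearest SOX peaks to genes of this group without one were P2 SOX9 peaks 8424 bp from Tcf7l1 and 13697 bp from Tcf7. Lef1 lay 338646 bp from the nearest SOX peak, and Tcf7 had no H3K4me3 peak at either age.

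H3K4me3 was called at 21 of the 45 genes at P2 (46.7%, background 49.3%) and 15 at P17 (33.3%, background 50.9%). The 7 genes with the mark at P2 and not P17 were Wnt7b, Lrp5, Fzd7, Fzd10, Sfrp2, Lef1 and Tcf7l1, or 15.6% against 3.40% of all genes. At 14 genes the mark was called at both ages (31.1%, background 45.9%). The reverse of the 7 held for Wnt10b alone (2.22% against 5.0%), through a peak 4764 bp away that held the start of Arf3. Of genes with P2 H3K4me3, 14 of 21 had a P2 SOX9 peak (66.7%, background among such genes 53.3%) and 7 of 21 a P2 SOX8 peak (33.3%, background 29.8%). Of genes without P17 H3K4me3, 5 of 30 had a P17 SOX8 peak (16.7%, background 2.59%) and 4 of 30 a P17 SOX9 peak (13.3%, background 3.65%). With P17 H3K4me3 the counts were 4 of 15 for SOX8 (26.7%, background 23.1%) and 7 of 15 for SOX9 (46.7%, background 27.4%). Without P2 H3K4me3 they were 1 of 24 for P2 SOX8 (4.17%, background 0.748%), at Wnt3, and 1 of 24 for P2 SOX9 (4.17%, background 2.91%), at Wnt10a. Read the other way, H3K4me3 of the same age was missing at 1 of 8 genes with P2 SOX8 (12.5%, background 2.51%) and 1 of 15 with P2 SOX9 (6.67%, background 5.32%). At P17 it was missing at 5 of 9 genes with SOX8 (55.6%, background 9.75%) and 4 of 11 with SOX9 (36.4%, background 11.4%). Among these 4 was Lrp5, whose P17 SOX9 peak overlapped a P17 H3K4me3 peak that lay outside the window. Wnt10b was counted with P17 H3K4me3, though its SOX9 peak did not overlap that mark.

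H3K27ac was called at 41 genes at P2 (91.1%, background 81.8%) and 20 at P17 (44.4%, background 57.0%). The median share of the window under the mark was 28.3% at P2 against 20.9% for all genes, and 0% at P17 against 4.85%. Most P2 bases lay at Tcf7l2 (136012), Tcf7l1 (106020), Lrp5 (100502), Wnt5b (70961) and Lrp6 (62465), and most P17 bases at Axin1 (30232), Lrp6 (29096), Wnt5b (18088), Ctnnb1 (13213) and Tcf7l1 (7219). The mark was called at P2 and not P17 at 22 genes (48.9%, background 25.1%) at both ages at 19 (42.2%, background 56.7%), and at P17 and not P2 at Sfrp5 (2.22%, background 0.315%). With lists shortened to equal numbers of widest peaks, the counts at P2 alone and P17 alone were 11 and 7. The share of all genes was not computed for the shortened lists.

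**Figure D4:**
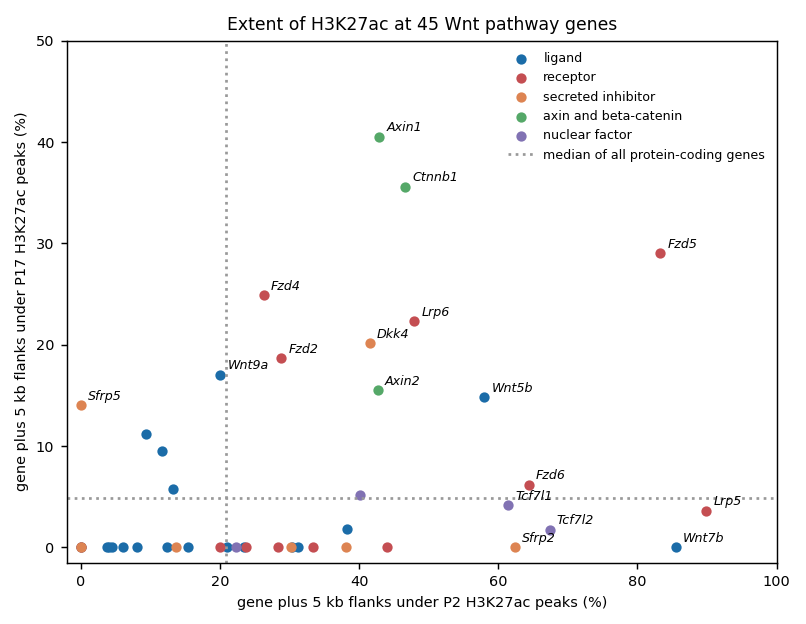
Percentage of each gene and its 5 kb flanks under H3K27ac peaks at P2 (horizontal) and P17 (vertical), 1 point per gene, coloured by role; dotted lines are the medians of all protein-coding genes. Axin1 and Ctnnb1 lie highest at P17 (40.53% and 35.61%), and Lrp5 and Wnt7b lie far right at P2 (89.93% and 85.54%) and at 3.60% and 0% at P17.

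The comparison of ages for SOX peaks depended on list length. SOX9 was called at P2 and not P17 at 7 genes (15.6%, background 16.4%), the reverse at 3 (6.67%, background 4.35%) and at both ages at 8 (17.8%, background 11.4%), but with equal numbers of widest peaks the P2-only and P17-only counts were 4 and 5. In the wider 50% of its list, P17 SOX9 reached 3 genes, not 11. These were the ligands Wnt1, Wnt7b and Wnt10b, so no receptor kept a P17 SOX9 peak under that setting. For SOX8 the P2-only and P17-only counts were 5 (11.1%, background 7.0%) and 6 (13.3%, background 4.94%). With equal numbers they were again 5 and 6, but this shortened only the P2 list, from 2653 to 2400 peaks. In the wider 50% of each list they were 2 (Fzd5 and Fzd7) and 4. Backgrounds were not computed for shortened lists of either factor. In the full lists 3 genes (Wnt3, Wnt5b and Fzd8) had SOX8 at both ages (6.67%, background 8.08%). The 6 genes with SOX8 at P17 and not P2 were Wnt2b, Wnt7a, Wnt7b, Wnt11, Axin1 and Axin2. The 5 with SOX8 at P2 and not P17 were Fzd4, Fzd5, Fzd7, Lrp5 and Sfrp2. In the full lists the P17 group thus held ligands and axin genes, and the P2 group held receptors and a secreted inhibitor. Axin1 was counted through a peak 4216 bp outside the gene, and a P17 SOX8 peak lay 6894 bp from Lrp5.

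Starts could be placed for 31 of the 45 genes from a RefSeq promoter table of GRCm38.p6. A start lay under a peak at 4 genes in each of the P2 and P17 SOX8 lists (background 12.2% and 8.40%), 7 in the P2 SOX9 list (background 22.8%) and 6 in the P17 SOX9 list (background 10.3%). For H3K4me3 the numbers were 12 at P2 (background 44.8%) and 6 at P17 (background 46.0%), and for H3K27ac 10 (background 60.7%) and 6 (background 46.6%). The 250 bases before the start are shown for 8 genes, taken by most SOX lists over the start and then alphabetically. The starts of Axin2, Fzd4, Fzd5 and Fzd7 had a SOX peak at both ages, and those of Sfrp2, Ctnnb1 and Fzd1 at P2 only. The start of Wnt1 had one at P17 without marks. Those of Wnt10b, Wnt11, Wnt2b and Wnt7a were in as many SOX lists as Wnt1 and are not shown. Sequences are from RefSeq, 5′ to 3′, and capitals mark matches on either strand to ACAAAG or ACAATG, letters bound by many SOX proteins, or to ATCAAAG, letters bound by TCF and LEF proteins. ACAAAG and ATCAAAG share their last letters, and a match describes the letters only.
Axin2 (chr11:108920099-108920348, plus strand): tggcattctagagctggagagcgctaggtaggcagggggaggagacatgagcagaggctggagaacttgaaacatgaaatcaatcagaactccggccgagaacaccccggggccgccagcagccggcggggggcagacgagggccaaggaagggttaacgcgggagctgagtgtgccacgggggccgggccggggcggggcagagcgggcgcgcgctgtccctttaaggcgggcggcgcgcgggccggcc
Fzd4 (chr7:89404116-89404365, plus strand): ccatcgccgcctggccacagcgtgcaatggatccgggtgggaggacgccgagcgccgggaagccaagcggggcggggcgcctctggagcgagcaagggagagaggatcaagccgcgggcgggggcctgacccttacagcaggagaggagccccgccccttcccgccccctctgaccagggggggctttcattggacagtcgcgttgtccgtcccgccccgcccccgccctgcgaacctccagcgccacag
Fzd5 (chr1:64737751-64738000, minus strand): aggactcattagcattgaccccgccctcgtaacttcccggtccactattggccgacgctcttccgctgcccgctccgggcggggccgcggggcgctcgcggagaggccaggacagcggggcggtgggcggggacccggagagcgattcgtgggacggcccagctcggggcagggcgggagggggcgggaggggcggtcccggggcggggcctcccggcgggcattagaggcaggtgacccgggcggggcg
Fzd7 (chr1:59481897-59482146, plus strand): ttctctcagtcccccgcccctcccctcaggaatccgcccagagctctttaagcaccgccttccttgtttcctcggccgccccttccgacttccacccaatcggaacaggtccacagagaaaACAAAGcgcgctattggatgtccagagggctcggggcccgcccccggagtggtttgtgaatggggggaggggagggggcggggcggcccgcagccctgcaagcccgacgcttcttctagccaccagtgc
Sfrp2 (chr3:83766071-83766320, plus strand): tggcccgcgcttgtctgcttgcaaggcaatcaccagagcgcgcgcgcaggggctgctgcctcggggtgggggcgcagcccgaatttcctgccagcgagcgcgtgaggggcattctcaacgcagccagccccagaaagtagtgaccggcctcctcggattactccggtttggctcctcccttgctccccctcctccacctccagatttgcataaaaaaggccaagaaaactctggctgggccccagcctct
Ctnnb1 (chr9:120933150-120933399, plus strand): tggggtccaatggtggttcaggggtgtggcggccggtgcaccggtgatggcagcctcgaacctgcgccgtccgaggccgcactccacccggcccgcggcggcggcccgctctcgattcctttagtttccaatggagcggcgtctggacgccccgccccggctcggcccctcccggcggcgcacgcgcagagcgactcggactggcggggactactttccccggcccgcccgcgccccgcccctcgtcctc
Fzd1 (chr5:4758217-4758466, minus strand): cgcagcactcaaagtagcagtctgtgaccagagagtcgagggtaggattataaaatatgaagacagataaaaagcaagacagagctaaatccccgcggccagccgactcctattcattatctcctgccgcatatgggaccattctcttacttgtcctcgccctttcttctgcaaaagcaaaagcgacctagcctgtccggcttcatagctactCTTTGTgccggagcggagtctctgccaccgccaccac
Wnt1 (chr15:98789607-98789856, plus strand): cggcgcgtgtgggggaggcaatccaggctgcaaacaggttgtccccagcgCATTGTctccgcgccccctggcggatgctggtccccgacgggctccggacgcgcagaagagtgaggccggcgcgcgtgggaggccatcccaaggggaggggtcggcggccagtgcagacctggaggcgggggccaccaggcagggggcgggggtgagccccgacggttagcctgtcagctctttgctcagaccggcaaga

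The promoters of Axin2, Fzd4, Fzd5, Sfrp2 and Ctnnb1 held no match in this window, those of Fzd7 and Fzd1 held 1 ACAAAG each and that of Wnt1 held 1 ACAATG. Over all 40 tabulated starts of the 31 genes, 20% held ACAAAG, 10% ACAATG and 5.0% ATCAAAG, against 16.5%, 10.7% and 3.21% of 32851 promoters of the same length. The motifs were therefore about as frequent as in the table. CpG dinucleotides were more frequent, with a median of 22 in 250 bases against 6. The table covers 27025 genes, of which 17492 are protein-coding, whereas the members all are. Motifs and CpG were not compared with starts of protein-coding genes alone. The 14 starts under a SOX peak had a median of 24.5 CpG. Of these 14 starts, 14.3% held ACAAAG, 7.14% ACAATG and 7.14% ATCAAAG. Many CpG were found at starts with a SOX peak (43 at a start of Ctnnb1) and without one (48 at Wnt9a).

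Outside the symbol rule, a list of 59 other Wnt pathway genes was counted in the same way. SOX peaks were more frequent there: P2 SOX8 at 16 (27.1%), P17 SOX8 at 17 (28.8%), P2 SOX9 at 30 (50.8%) and P17 SOX9 at 23 (39.0%), beside the backgrounds given above of 15.1%, 13.0%, 27.7% and 15.7%. H3K4me3 was more frequent there too, at 43 of the 59 at P2 (72.9%, background 49.3%) and 40 at P17 (67.8%, background 50.9%), and its part in the SOX counts was not tested. All 4 SOX lists reached 9 of the 59 (15.3%, background 6.45%). These were the nuclear co-repressors Tle1, Tle2 and Tle3, the beta-catenin cofactor Bcl9l and the relay genes Dvl2, Gsk3a and Csnk1d. The others were the Dishevelled-binding gene Dact3 and Znrf3, a ubiquitin ligase that removes Frizzled from the membrane. Some of these peaks lay in the flanks only. At Dvl2 the SOX8 peaks lay 2548 bp (P2) and 2691 bp (P17) outside the gene. At Tle2 all but the P17 SOX9 peak lay outside, by 1130 bp or more, and the P17 SOX8 peak of Bcl9l lay 701 bp outside. Starts of other genes under the peaks of the 59 genes were not looked for.

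At Tle3 the SOX peaks over the place shared by all 4 lists were 5174 bp (P2 SOX8), 5321 bp (P17 SOX8), 6676 bp (P2 SOX9) and 5062 bp (P17 SOX9). At Znrf3 they were 2188 bp, 2194 bp, 3058 bp and 2850 bp in the same order. At Bcl9l the widest SOX peak was one of SOX9 at P17, of 14502 bp (chr9:44496254-44510755). A further 16 genes lay in 2 or 3 SOX lists: Bcl9, Btrc, Celsr2, Celsr3, Gsk3b, Nkd1, Prickle1, Tle4, Tnik, Apc2, Ctnnbip1, Dvl1, Kremen2, Lgr4, Lrp4 and Notum. Notum, a secreted enzyme that inactivates Wnts, had P17 peaks of SOX8 (4540 bp) and SOX9 (5457 bp) and none at P2. Apc2 showed the same split, with a P17 SOX9 peak of 14240 bp, and Lgr4, a receptor for R-spondin, showed the opposite, with SOX8 (2165 bp) and SOX9 (3842 bp) peaks at P2 and none at P17.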

How the data were processed

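CUT&RUN peak lists from wild-type mouse retina at P2 and P17 were used. Per the submitters' processing notes, Bowtie2, SEACR and the build GRCm38 were used, with no versions or thresholds; how libraries, and for SOX8 both antibodies, were combined is not given in the sources used here. The 8 deposited lists hold positions, and the deposited score is 0 in every peak, so width is the only size they carry. Each list was matched to its group by age and target.

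Genes came from a RefSeq table of GRCm38.p6 (59 of 59 other pathway genes matched), starts and sequences from its promoter table (31 of 45 genes matched; the 14 others are Axin1, Dkk4, Fzd2, Fzd3, Fzd6, Fzd8, Lrp5, Lrp6, Sfrp1, Sfrp4, Wnt10a, Wnt5a, Wnt7b and Wnt8a). Table starts are 1-based, and peaks were converted to the same count. Overlaps were computed in Python 3.11.15 with pandas 2.3.3 and tested on simulated data, where 20665 of 20665 genes gave the simulated result. No test was run, since lists hold no replicates. By rule, positions and widths were given for members with any SOX peak, those whose H3K4me3 call differed between ages and the 5 with most H3K27ac at each age, and members with no peak in 7 or more lists were named. The other members were described so that all 45 are accounted for, and the values given for them, and the H3K27ac share of Fzd9, were chosen after they were seen. The printed promoters were those under most SOX lists, then alphabetical. Of the retinal markers checked, 2 are not reported here. Other flanks, thresholds, overlaps and backgrounds were tried. The members and lists were chosen with earlier results of these data known.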

Additional observations from a re-analysis of the deposited data

How the results depend on the processing

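No paired analysis was possible because each peak list pools its libraries and no list names a replicate; for the same reason no replicate could be left out. Of 144 recomputed counts, 35 moved by over 1.5 times or fell to 0. The 144 included 16 counts of SOX peaks overlapping other lists, of which 0 moved. They also included 16 counts over 31 genes, of which 11 moved, and the rest were counts over the 45 genes. Counts are given P2 then P17. With equal numbers of widest peaks, P2 H3K27ac fell from 41 to 24 genes, SOX9 at P2 only and P17 only became 4 and 5, and H3K27ac 11 and 7. With the wider 50% of each list, P2 SOX8 was 5, P17 SOX9 3, P17 H3K27ac 13, P2-only SOX8 2 and P17-only H3K27ac 0. With 10 kb flanks, the P17-only counts of H3K4me3 and H3K27ac were 0 and 0. With 50 kb flanks, P2 SOX9 was 24, H3K4me3 33 and 31, P17 H3K27ac 32, P2-only SOX9 14, H3K4me3 at P2 only and P17 only 4 and 2, and H3K27ac 13 and 0. P17-only H3K4me3, which was 1 gene (Wnt10b), was 0 in the gene body alone, by peak centres and without peaks at another gene's start. Shares of all protein-coding genes were not computed for these flanks, shortened lists, gene bodies, peak centres or left-out peaks. The backgrounds given above for 5 kb flanks do not apply to them.

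With the 300 bases at the starts of the 31 genes that have one, where fewer genes could be counted, SOX8 was 4 and 4, SOX9 7 and 6, H3K4me3 12 and 6, H3K27ac 14 and 6, P2-only SOX9 3, P17-only H3K4me3 0 and P2-only H3K27ac 9. Asking that 50% of the shorter peak be shared moved none of 16 counts of SOX peaks at other lists. The lists carry no height, so a stricter threshold could be set by width alone. An uncalled peak does not show an unbound site.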
